A study of Mus musculus with 12 samples.

Results

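The genes described here encode the ephrins and their Eph receptors, the Slits and their Robo receptors, and the netrins with their receptors and the related netrin-Gs. They were chosen by gene symbol from a list of 39, and 38 of them were found among the 52634 genes of the count table. Ntn3 matched no identifier and was not analysed here. The 38 comprised 5 ephrin-A ligands, 3 ephrin-B ligands, 9 EphA receptors, 5 EphB receptors, 3 Slits, 4 Robo receptors, 2 netrins, 2 netrin-Gs and 5 netrin receptors.

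Growing axons steer by cues that attract or repel their tips. Ephrins are held on the cell surface, the A class by a lipid anchor and the B class by a transmembrane segment, and they bind Eph receptor tyrosine kinases on neighbouring cells, with signals passing in both directions. Slits are secreted and repel axons through Robo receptors, whereas netrins attract through Dcc and repel when Unc5 receptors take part. In the hippocampus these families are known for guiding entorhinal and septal afferents to their layers, for the growth of mossy fibres and for the shaping of dendritic spines.

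RNA was sequenced from dorsal hippocampus of mice at postnatal day 7, in 12 libraries that each pooled the tissue of 4 mice. The control genotype was SERTfl/fl, which carries loxP-flanked copies of Slc6a4, the serotonin transporter gene. In the other genotype, SERTPyramid (SERTPyramid∆ in the sample titles), this gene was conditionally deleted in pyramidal neurons, by a Cre line that the labels do not name. Each genotype had 3 libraries labelled female and 3 labelled male, and whether pools shared litters is not given, so the p-values describe only how these libraries vary.

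Library totals ran from 18747249 to 25522347 counts. In 10 libraries the Xist and Y-linked counts were mainly those of the sex opposite to the label. Among them, control labelled female replicate 3 held 527 Xist counts beside 2849 Y-linked counts. The other labelled-female libraries of these 10 had 13 to 59 Xist counts. Only replicate 1 of each control group matched its label, so "labelled female" and "labelled male" name the label only, and comparisons were repeated without these 2 control libraries. Slc6a4 had 0 to 17 counts in control and 1 to 12 counts in SERTPyramid libraries, too few to check the deletion in whole tissue. The pyramidal neuron markers Slc17a7 and Neurod6 stood at 795 to 981 TPM and 549 to 603 TPM, and the dentate granule marker Prox1 at 86.4 to 122 TPM. TPM divides each count by the gene's exon length and brings every library to 1 common total. Choroid plexus markers varied most between libraries, from 27.3 summed CPM in SERTPyramid labelled female replicate 3 to 2486 in SERTPyramid labelled male replicate 1, where CPM is the count scaled by the library total. In such bulk tissue, fewer cells of a type and less RNA per cell cannot be told apart.

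Per length of transcript, Efnb3, a transmembrane ephrin, was the highest of the guidance genes, with 373.5 to 424 TPM. It held 87.8% of the summed TPM of the ephrin-B class. Efnb2 (27.4 to 33.2 TPM) and Efnb1 (23.0 to 27.5 TPM) were well below it, and their ranges over the 12 libraries overlapped slightly. Among the lipid-anchored ephrins, Efna3 led at 91.3 to 104 TPM and Efna2 followed at 39.7 to 54.3 TPM. Efna4 (7.07 to 11.9 TPM) and Efna1 (7.24 to 9.49 TPM) overlapped, and Efna5 was the lowest at 4.12 to 6.32 TPM.

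The EphA receptors spanned the widest range of levels. Epha4, which binds ephrins of both classes, had 226 to 297 TPM and 43.5% of the class sum. Epha5 (99.1 to 124 TPM), Epha8 (66.7 to 117 TPM), Epha6 (45.5 to 86.4 TPM) and Epha7 (52.3 to 68.4 TPM) came next, and each of these 4 overlapped its neighbour in that order. Epha3 stood at 12.2 to 15.8 TPM, the kinase-inactive Epha10 at 6.27 to 8.97 TPM and Epha2 at 1.76 to 2.86 TPM. Epha1 had 0 to 9 counts in a library, or 0 to 0.373 CPM, and its single count of 0, in SERTPyramid labelled male replicate 2, allows a level of up to 3 counts, which is 0.118 to 0.16 CPM in these libraries. That limit covers counting error only. The EphB receptors were more even. Ephb6, whose kinase domain is inactive, had 63.7 to 87.4 TPM, and Ephb2 overlapped it at 57.8 to 67.5 TPM. Ephb1 (31.6 to 38.9 TPM) and Ephb3 (29.0 to 32.2 TPM) overlapped as well, and Ephb4, best known from veins, was lowest at 11.5 to 14.1 TPM.

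Slit1 was the leading Slit at 85.5 to 104 TPM, above Slit3 at 54.0 to 69.6 TPM and Slit2 at 8.33 to 10.3 TPM, with no overlap between neighbours. Robo1 (46.5 to 59.6 TPM) and Robo2 (35.0 to 43.6 TPM) were the main Slit receptors. Robo3, which in commissural neurons tempers Slit repulsion, ran from 4.96 to 18.4 TPM and overlapped the endothelial receptor Robo4 at 6.20 to 8.12 TPM. The secreted netrins were low and overlapped, with Ntn1 at 10.04 to 13.0 TPM and Ntn4 at 8.11 to 11.7 TPM. Their receptors were led by Unc5a, a repulsive netrin receptor, at 114 to 125 TPM, or 66.0% of the class sum. Dcc, the attractive receptor, had 15.8 to 25.2 TPM, followed by Unc5b (12.6 to 19.96 TPM), Unc5d (9.91 to 14 TPM) and Unc5c (9.39 to 11.97 TPM), each overlapping the next. Of the netrin-Gs, lipid-anchored proteins that bind partner molecules at synapses rather than Dcc, Ntng2 had 79.4 to 112 TPM and Ntng1 6.97 to 9.94 TPM.

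**Figure D1:**
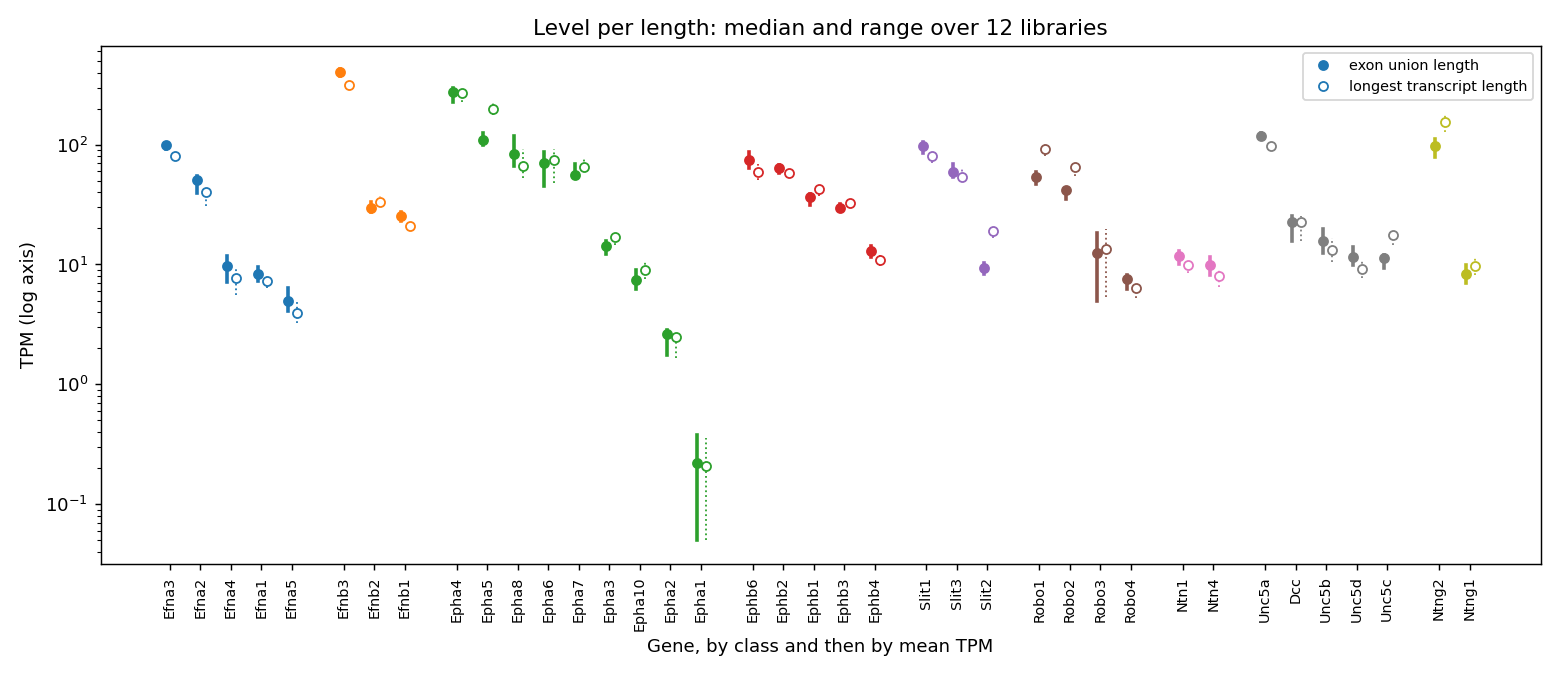
Level per length of the 38 guidance genes, as TPM on a log axis, with genes along the other axis grouped by class. Filled points are medians over 12 libraries with the range as a line, open points the same with the longest transcript in place of the exon union, and a value of 0 is drawn at the lower limit, which touches Epha1 only. Efnb3, Epha4 and Unc5a have the highest filled points.

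The order within classes rests partly on the transcript length assumed. With the longest annotated transcript in place of the union of all exons, the leading member was the same in 9 of 9 classes. Neighbours overlapped in 12 of 29 pairs with the exon union and in 9 of 29 with the longest transcript, where Efnb2 stood apart from Efnb1, Epha5 from the next EphA receptor and Ephb1 from Ephb3. Epha6 and Epha8 then changed places, and Unc5c moved from the fifth to the third place among netrin receptors, since its exon union is 1.98 times its longest transcript. Slit2 had the largest such ratio, 2.55, and its median moved from 9.42 to 18.9 TPM, still the lowest of the Slits. Reads were not assigned by strand, and the exons of 10 members overlap those of another gene. For 9 of them, among them Efna3, Epha6, Ephb1, Unc5a and Unc5c, the other gene lies on the opposite strand. Where the exons overlap, reads cannot be told from those of the partner gene, and how such reads were counted is not given.

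The promoters of 33 members were found in the RefSeq table for GRCm38.p6, which lists 38 promoters for them because some have more than 1 start. The 250 bases before the start held a median of 17.5 CpG dinucleotides in these 38, against 6 over the 32851 promoters of the table, and the median GC content was 64.6% against 52.4%. The hexamer GGGCGG, searched on both strands, was in 68.4% of the members' promoters and 32.7% of all, CCAAT in 36.8% and 33.8%, and TATAAA in 5.26% and 12.4%. GGGCGG itself contains a CpG, so these counts are not independent, and a match describes letters only. The sequences of 4 receptors that the results below turn on are given 5′ to 3′ on the strand of the gene, with CpG dinucleotides in capitals. They were chosen for the highest EphA level (Epha4) and for unadjusted genotype differences in receptors of 3 classes (Epha2, Ephb1, Unc5b).

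Epha4, chr1:77515089-77515338, minus strand, 14 CpG, more than in 70.6% of all promoters, is followed by Epha2, chr4:141300971-141301220, plus strand, 9 CpG, more than in 59.7%. Ephb1 is at chr9:102354694-102354943, minus strand, with 10 CpG, more than in 62.2%, and Unc5b at chr10:60831582-60831831, minus strand, with 27 CpG, more than in 91.4%.
Epha4: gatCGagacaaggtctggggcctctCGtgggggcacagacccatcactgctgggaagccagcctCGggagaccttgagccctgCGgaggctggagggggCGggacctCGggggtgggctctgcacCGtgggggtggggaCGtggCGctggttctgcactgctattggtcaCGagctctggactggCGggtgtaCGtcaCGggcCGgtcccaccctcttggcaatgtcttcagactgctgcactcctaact
Epha2: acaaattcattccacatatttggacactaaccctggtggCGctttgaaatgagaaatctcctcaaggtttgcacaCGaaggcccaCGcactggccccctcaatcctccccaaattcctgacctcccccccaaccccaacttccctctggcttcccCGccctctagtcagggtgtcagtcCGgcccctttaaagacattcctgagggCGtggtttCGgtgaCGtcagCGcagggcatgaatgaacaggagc
Ephb1: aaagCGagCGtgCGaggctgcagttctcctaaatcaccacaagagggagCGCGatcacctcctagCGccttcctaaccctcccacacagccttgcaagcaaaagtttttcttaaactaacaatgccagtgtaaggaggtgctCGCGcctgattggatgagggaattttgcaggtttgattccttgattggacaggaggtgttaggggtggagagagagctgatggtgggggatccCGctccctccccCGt
Unc5b: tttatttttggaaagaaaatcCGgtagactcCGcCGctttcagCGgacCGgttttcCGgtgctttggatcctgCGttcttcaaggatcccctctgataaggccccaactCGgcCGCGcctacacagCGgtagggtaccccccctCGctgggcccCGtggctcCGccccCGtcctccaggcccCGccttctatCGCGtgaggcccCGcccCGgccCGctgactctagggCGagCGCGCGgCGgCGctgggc
The first 3 promoters hold 9 to 14 CpG, below the members' median, and that of Unc5b lies well above it.

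The first comparison asked how the conditional deletion of Slc6a4 went with guidance gene levels in libraries of each labelled sex. In Xist and Y-linked counts, replicate 1 of each control group was of the other sex than the remaining libraries of its labelled sex. Genotype and sex are thus partly confounded within each labelled sex. By edgeR's quasi-likelihood test over all 12 libraries, with Benjamini-Hochberg adjustment at 0.05, 0 of the 37 members that passed the filter on low counts were called in either labelled sex. Epha1 did not pass. Over all 17631 genes tested, 0% were called in either comparison. At an unadjusted p under 0.05, 5 of 37 members differed among labelled females, 1 higher and 4 lower in SERTPyramid, where 8.04% of all genes did (4.32% higher and 3.72% lower). Among labelled males 2 of 37 did, both lower, against 3.16% of all genes (1.48% lower). DESeq2 and limma voom with quality weights gave 3 and 11 such members among labelled females, against 5.98% and 13.7% of genes, and 2 and 3 among labelled males, against 1.75% and 4.17%. Both called 0 members after adjustment.

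**Figure D2:**
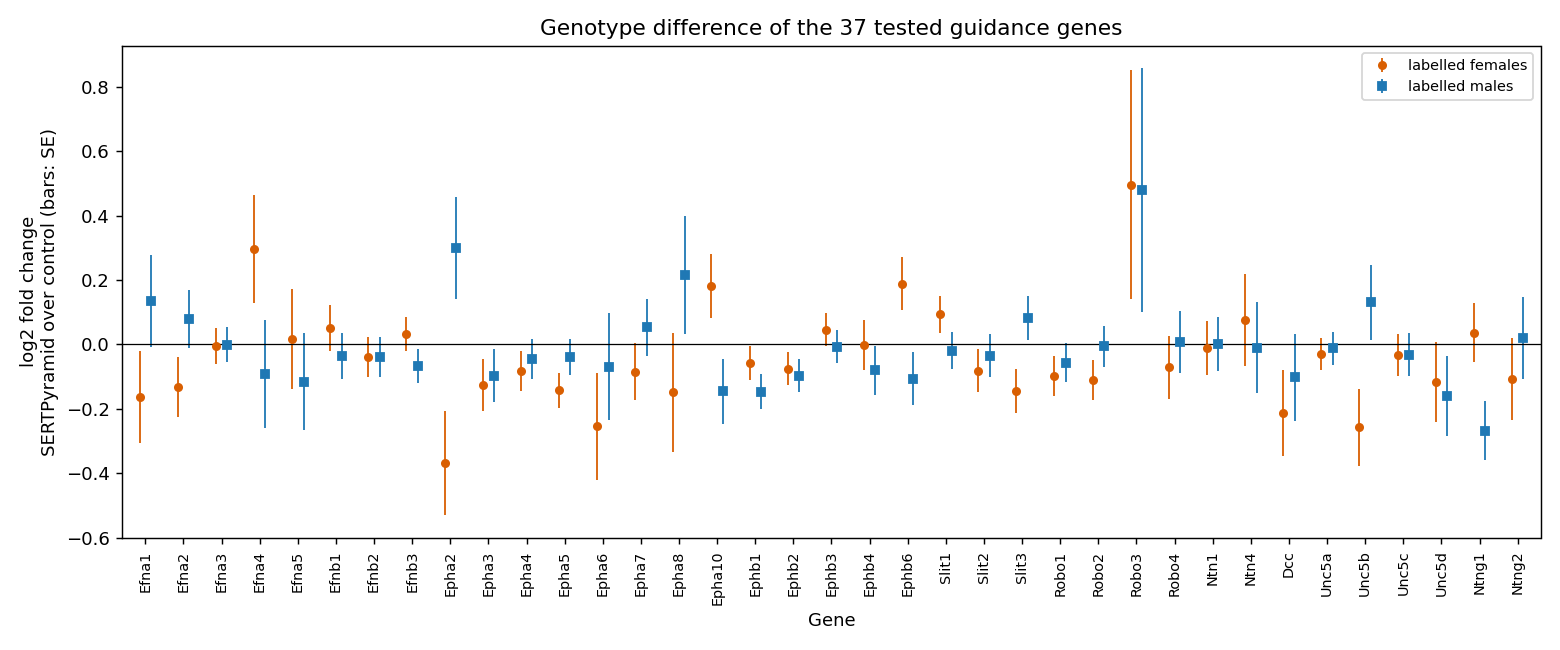
Log2 fold change of SERTPyramid over control for the 37 tested members, in labelled females (circles) and labelled males (squares), with the SE of edgeR's fit as bars. Most points lie within 0.3 of 0, and Robo3 has the widest bars.

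More members lay below 0 than above it. In each labelled sex 26 of 37 members had a log2 fold change below 0, against 50.1% of all genes among labelled females and 49.5% among labelled males. The medians over members were -0.07 and -0.04. Members vary together between libraries and were chosen with results known, so this count carries no test. Leaving out single libraries moved it between 23 and 27 among labelled females and between 17 and 28 among labelled males, where the 17 came without SERTPyramid replicate 3. By class, 7 of 8 EphA receptors (median -0.13) lay below 0 among labelled females and 5 of 8 (median -0.04) among labelled males. Of the netrin receptors, 5 of 5 (median -0.12) and 4 of 5 (median -0.03) did. The EphB receptors had 3 of 5 below 0 (median -0.0015) among labelled females and 5 of 5 (median -0.10) among labelled males. The ephrin-B ligands had 1 of 3 (median 0.03) and 3 of 3 (median -0.04). Averaged over labelled sexes, 28 of 37 members lay below 0, and 3 had an unadjusted p under 0.05, against 6.49% of genes (2.56% lower). These were Ephb1 (log2 -0.10), Ephb2 (log2 -0.09) and Epha5 (log2 -0.09), each with an adjusted p of 0.756 by edgeR.

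Among the EphA receptors, Epha5, whose ligands are ephrin-As, lies on chromosome 5 (84054761 to 84417382, minus strand, GRCm38). Control libraries labelled female had 519, 480.5 and 498 CPM of Epha5, and SERTPyramid libraries labelled female 485, 434 and 453. The libraries of the 2 genotypes did not overlap once scaled by TMM, edgeR's correction of library totals, with means of 503 ± 19.7 and 455 ± 23.4 scaled CPM (SD, n = 3). Controls labelled male had 445, 485 and 452 CPM, and labelled-male SERTPyramid libraries 463, 461 and 432, which overlapped. Epha5 thus had a log2 fold change of -0.14 ± 0.055 (SE) among labelled females, with an adjusted p of 0.568 by edgeR, and -0.04 ± 0.055 among labelled males, with an adjusted p of 0.999.

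Epha2, a low receptor with a role in vessels and epithelia (chromosome 4, 141301240 to 141329384, plus strand), had the largest difference between labelled sexes. Its levels were 3.17, 3.06 and 3.11 CPM in labelled-female controls and 2.64, 2.56 and 2.12 CPM in labelled-female SERTPyramid libraries. Labelled-male controls had 2.08, 2.74 and 3.11 CPM of Epha2, and labelled-male SERTPyramid libraries 3.16, 3.35 and 3.45. SERTPyramid libraries were thus all lower in the one labelled sex and all higher in the other, where the groups overlapped once scaled by TMM. Among labelled females the log2 fold change was -0.37 ± 0.16, with an SE from the fit and an adjusted p of 0.591 by edgeR, and among labelled males it was 0.30 ± 0.16 with an adjusted p of 0.999. Their difference was -0.67 ± 0.23, with an adjusted p of 0.999 by edgeR.

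Epha10 (chromosome 4, 124880899 to 124917800, plus strand) was named for the difference between labelled sexes only. Labelled-female libraries had 11.3, 14.8 and 13.7 CPM in controls and 14.6, 15.1 and 16.1 CPM in SERTPyramid. Labelled-male libraries had 13.2, 12.5 and 14.8 CPM in controls and 12.3, 11.5 and 13.3 CPM in SERTPyramid. The genotypes overlapped in both labelled sexes, and the difference of the log2 fold changes was 0.33 ± 0.14 (SE), with an adjusted p of 0.999 by edgeR.

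Ephb1, a receptor of ephrin-Bs that is known for turning retinal axons away from the midline (chromosome 9, 101922128 to 102354693, minus strand), was lower in labelled-male SERTPyramid libraries. Their CPM values were 56.8, 61.7 and 57.6, against 61.5, 66.8 and 64.8 in labelled-male controls. In labelled-female libraries Ephb1 had 65.5, 63.8 and 67.4 CPM in controls and 63.0, 63.8 and 64.4 CPM in SERTPyramid. Groups overlapped after TMM scaling in both labelled sexes. In log2 terms SERTPyramid differed from control by -0.15 ± 0.054 (SE, edgeR adjusted p = 0.999) among labelled males and -0.06 ± 0.053 (adjusted p = 0.821) among labelled females.

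Ephb6 (chromosome 6, 41605482 to 41620509, plus strand) had 60.1, 73.2 and 67.4 CPM in labelled-female controls and 70.2, 82.5 and 78.8 CPM in labelled-female SERTPyramid libraries. Among labelled males it had 68.9, 78.2 and 71.7 CPM in controls and 62.5, 70.2 and 72.6 CPM in SERTPyramid. Groups overlapped in both labelled sexes. The fitted log2 fold change was 0.19 ± 0.082 (SE, edgeR adjusted p = 0.591) in libraries labelled female and -0.11 ± 0.083 among labelled males, and their difference 0.30 ± 0.12 (adjusted p = 0.999).

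**Figure D3:**
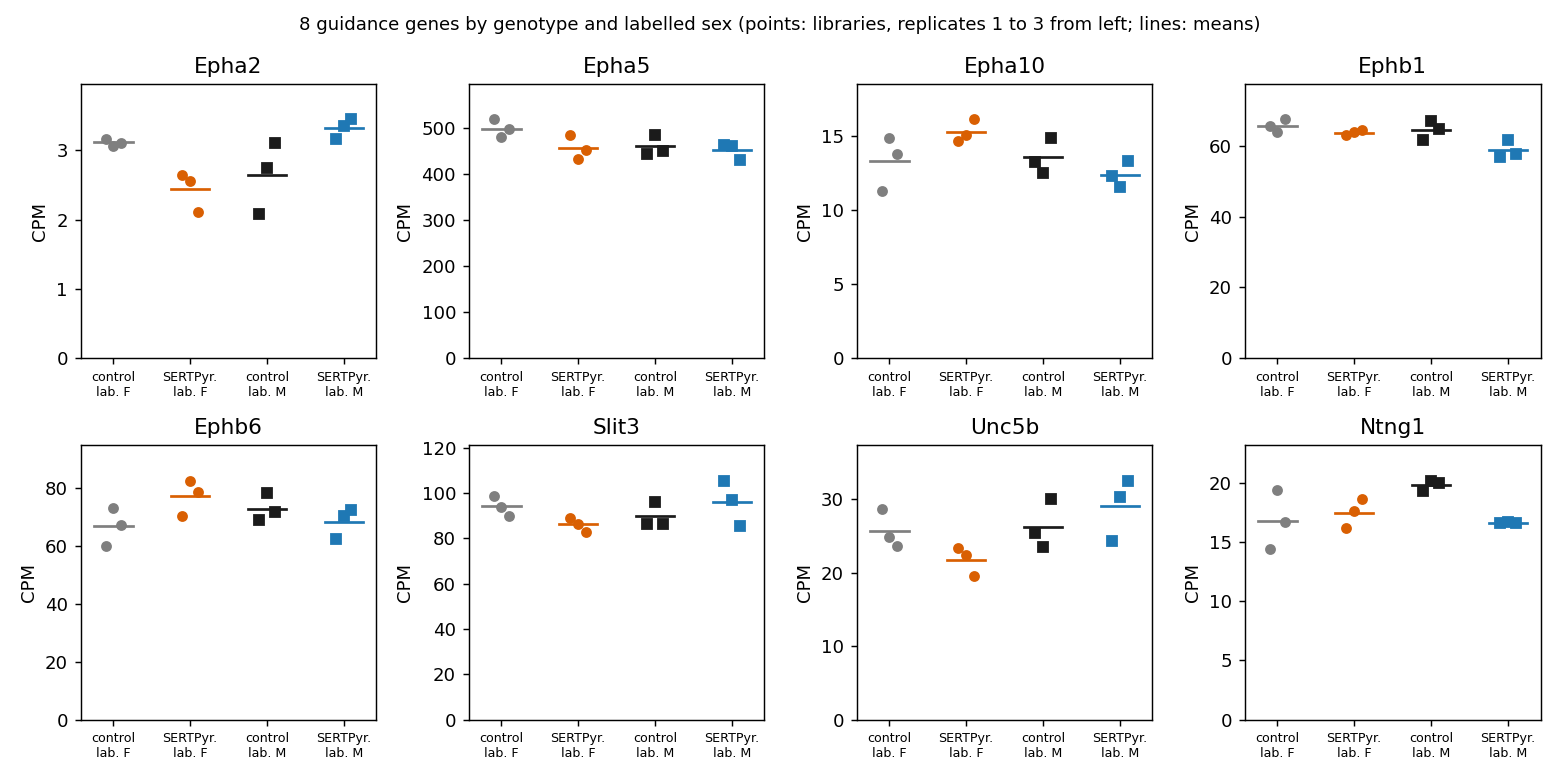
CPM in each library for the 8 members with an unadjusted p under 0.05 in a genotype comparison or in its difference between labelled sexes. Points are libraries in replicate order and lines are group means, with axes from 0. Epha2 is lower in the labelled-female and higher in the labelled-male SERTPyramid libraries.

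Slit3, a secreted repellent (chromosome 11, 35121224 to 35708507, plus strand), had 98.5, 94.0 and 89.8 CPM in labelled-female controls and 89.2, 86.2 and 82.9 CPM in labelled-female SERTPyramid libraries. Labelled-male controls had 86.2, 96.1 and 86.4 CPM, and labelled-male SERTPyramid libraries 105, 96.7 and 85.4. The first pair of groups did not overlap and the second pair did. Slit3 differed by a log2 fold change of -0.15 ± 0.069 (SE, edgeR adjusted p = 0.617) in libraries labelled female and 0.08 ± 0.068 among labelled males, with a difference of -0.23 ± 0.097 (adjusted p = 0.999). The main neuronal receptors had log2 fold changes of -0.10 (Robo1) and -0.11 (Robo2) among labelled females and -0.06 and -0.01 among labelled males.

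Unc5b, a netrin receptor that is also a receptor of sprouting vessels (chromosome 10, 60762593 to 60831581, minus strand), had 28.7, 24.9 and 23.7 CPM in labelled-female controls and 23.4, 22.4 and 19.6 CPM in labelled-female SERTPyramid libraries. In labelled-male libraries it had 25.4, 23.5 and 30.1 CPM in controls and 24.4, 30.4 and 32.5 CPM in SERTPyramid. Only the labelled-female groups did not overlap. For Unc5b the log2 fold change came to -0.26 ± 0.12 (SE, edgeR adjusted p = 0.616) in libraries labelled female and 0.13 ± 0.12 among labelled males, with a difference of -0.39 ± 0.17 (adjusted p = 0.999). Endothelial markers lay below 0 among labelled females as well, 8 of 8 with a median log2 fold change of -0.14. Their summed level was 320 to 327 CPM in labelled-female controls and 277 to 325 CPM in labelled-female SERTPyramid libraries, and 0 of the 8 markers were at 0. Choroid plexus markers lay below 0 in 7 of 7 cases, with a median of -0.42. Among labelled males, 6 of 8 endothelial markers lay below 0 (median -0.03), and 3 of 7 choroid plexus markers did (median 0.04). The part of either in the Unc5b values was not tested.

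Dcc, the receptor that pairs with Unc5b in netrin responses, had 83.0, 78.04 and 76.3 CPM in labelled-female controls and 77.2, 63.9 and 65.9 CPM in labelled-female SERTPyramid libraries. In labelled males it had 65.0, 80.9 and 68.4 CPM in controls and 71.7, 75.9 and 54.1 CPM in SERTPyramid. Its log2 fold changes were -0.21 ± 0.13 (SE, adjusted p = 0.738 by edgeR) and -0.10 ± 0.14 (adjusted p = 0.999).

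Ntng1, a netrin-G of axons (chromosome 3, 109780040 to 110144011, minus strand), was the only member whose labelled-male groups did not overlap once scaled by TMM. Controls labelled male had 19.3, 20.1 and 19.98 CPM and SERTPyramid libraries labelled male 16.6, 16.6 and 16.6. Labelled-female libraries had 14.4, 19.4 and 16.7 CPM in controls and 16.2, 17.6 and 18.6 CPM in SERTPyramid, and 2 of the 3 labelled-male controls lay above that range. The fit gave log2 fold changes of -0.27 ± 0.091 (SE, edgeR adjusted p = 0.999) among labelled males and 0.04 ± 0.092 (adjusted p = 0.946) among labelled females, with a difference of 0.30 ± 0.13.

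Counted over all members, TMM-scaled groups did not overlap for 10 of 37 among labelled females, against 18.9% of all genes. Efna4 and Robo3 were higher in SERTPyramid, and Epha2, Epha5, Epha6, Ephb2, Slit3, Robo2, Dcc and Unc5b lower. Among labelled males it was 1 of 37, Ntng1, against 6.93% of genes.

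A fit of the 6 labelled-female libraries alone estimated a smaller spread. It called 2.43% of 17108 genes, and 0 of 37 members. At an unadjusted p under 0.05 it gave 11 of 37 members, where 13.9% of genes had one. The smallest adjusted p values by edgeR in that fit were 0.073 for Epha5, 0.075 for Epha6, 0.078 for Slit3 and 0.087 for both Dcc and Unc5b. Fitting only the 6 libraries labelled male called 0% of 17049 genes.

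Whether the genotype difference itself differed between labelled sexes was tested as an interaction. It gave 0 of 37 members after adjustment, with 0% of all genes called, and 6 of 37 at an unadjusted p under 0.05, 3 in each direction, against 4.45% of genes (2.01% above 0 and 2.44% below). The difference, taken as labelled females minus labelled males, was above 0 for Epha10, Ephb6 and Ntng1. It was below 0 for Epha2, Slit3 and Unc5b. These signs do not say in which labelled sex the genotypes differed more. All 5 EphB receptors had a difference above 0 (median 0.08), and 7 of 8 EphA receptors one below 0 (median -0.12). Leaving out single libraries moved the unadjusted count between 1 and 7. It was 1 without control labelled female replicate 1 (3.38% of genes) and 1 without SERTPyramid labelled female replicate 3 (4.03%). It was 7 without SERTPyramid labelled female replicate 1 (845 of 17883 genes) and 7 without SERTPyramid labelled male replicate 3 (919 of 17981). Without replicate 1 of both control groups it was 3 (3.87%). With the Y-linked covariate it was 1 (4.01%). The labelled-female count of 5 became 0 without control labelled female replicate 1 (5.85% of genes), 2 without replicate 1 of both control groups (6.43%) and 1 with the Y-linked covariate (5.93%). It became 8 without SERTPyramid labelled male replicate 3 (8.75%).

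Sizes moved too. Without replicate 1 of both control groups, the log2 fold change among labelled males went from 0.30 to 0.17 for Epha2, from -0.04 to -0.07 for Epha5, from 0.08 to 0.05 for Slit3 and from -0.10 to -0.17 for Dcc. Among labelled females it went from 0.18 to 0.08 for Epha10, from 0.19 to 0.12 for Ephb6 and from -0.26 to -0.17 for Unc5b, and Ntng1 turned from 0.04 to -0.06.

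Between labelled sexes, averaged over genotypes, 0 of 37 members were called, with 0% of all genes, and 4 of 37 had an unadjusted p under 0.05, against 9.01% of genes (4.88% lower). All 4 were lower in libraries labelled female, with log2 differences of -0.22 for Unc5b, -0.16 for Efna2, -0.12 for Efnb2 and -0.11 for Ephb4. Efnb2 and Ephb4 are a ligand and receptor known for marking arteries and veins. Adjusted p by edgeR was 0.443 for Efnb2 and above that for the other 3. Endothelial markers had 8 of 8 log2 differences below 0 (median -0.12) and choroid plexus markers 7 of 7 (median -0.72), and their part was not tested. With a covariate for Y-linked expression the picture changed, and 7 of 37 members had an unadjusted p under 0.05, 6 higher and 1 lower in libraries labelled female, against 6.97% of genes (3.25% higher and 3.72% lower). The 6 were Epha4 (log2 0.12), Epha5 (0.13), Epha6 (0.36), Ephb1 (0.11), Slit1 (0.12) and Robo2 (0.13), and the 1 lower was Ephb4 (-0.17), with adjusted p values of 0.659 to 0.704 by edgeR. In that fit Unc5b had -0.14, Efna2 -0.13 and Efnb2 -0.06. Within groups, Y-linked counts varied almost only through replicate 1 of each control group. It had 1 count against 3059 and 2849 among labelled females, and 2159 against 0 and 4 among labelled males. The covariate fit therefore rests largely on those control libraries. Since most labels go against the sex-chromosome transcripts, the direction belongs to the labels alone.

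Robo3 (chromosome 9, 37415669 to 37433246, minus strand) varied more than any other member, and it is described here because of that spread, after its values were seen. It had 19.9, 16.2 and 25.8 CPM in labelled-female controls and 27.3, 29.6 and 31.3 CPM in labelled-female SERTPyramid libraries. Labelled-male controls had 17.2, 13.5 and 11.5 CPM and labelled-male SERTPyramid libraries 26.4, 8.51 and 24.1. SERTPyramid labelled male replicate 2 was thus the lowest of all libraries while the other 2 of its group were above every labelled-male control. Robo3's SD within groups was 0.494 on the log2 scale, higher than in 99.8% of the 2370 genes of like level, whose median was 0.095. SERTPyramid exceeded control by 0.50 ± 0.36 on the log2 scale (SE, edgeR adjusted p = 0.776) in libraries labelled female and 0.48 ± 0.38 (adjusted p = 0.999) among labelled males.

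Leng8, a gene that is no member and that was noted for its own spread in these libraries, had 160, 148 and 172 CPM in labelled-female controls and 254, 272 and 254 CPM in labelled-female SERTPyramid libraries. In labelled males it had 209, 139 and 110 CPM in controls and 254, 88.1 and 201 CPM in SERTPyramid. The 3 lowest libraries were the same for Robo3 and Leng8 and in the same order, namely SERTPyramid labelled male replicate 2 and control labelled male replicates 3 and 2. Leng8 was chosen after its values were seen, and how many other genes share this order is not given here.

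**Figure D4:**
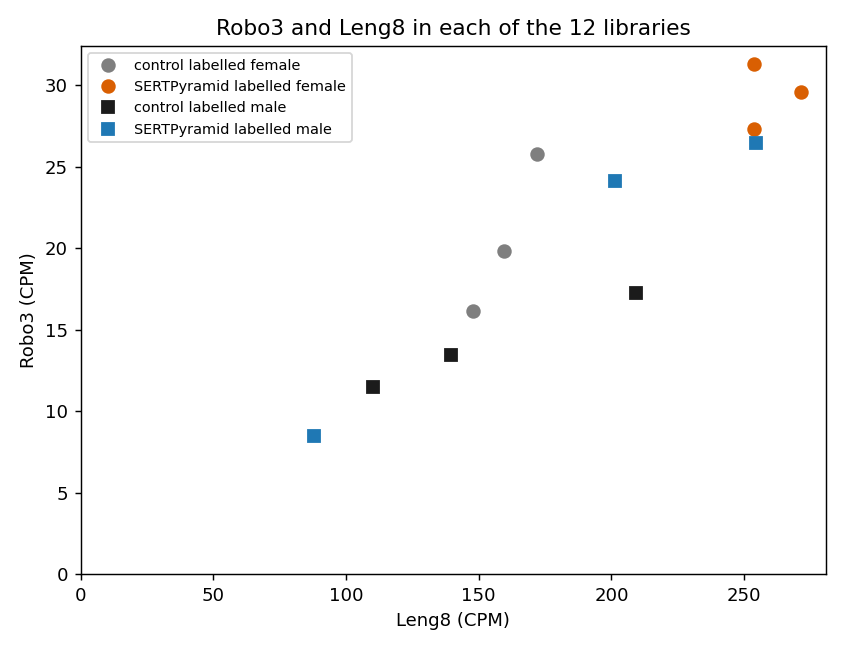
Robo3 against Leng8 in each of the 12 libraries, both in CPM with axes from 0. Symbols give the genotype and labelled sex. SERTPyramid labelled male replicate 2 is lowest for both, at 8.51 and 88.1 CPM.

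The other members were steadier. Epha8 had an SD within groups of 0.234 on the log2 scale and Epha6 one of 0.216, each higher than in at least 99% of genes of like level, and Dcc had 0.181, higher than in 97.9%. SERTPyramid labelled male replicate 3 held the lowest CPM of Epha6 (62.6), Dcc (54.1), Epha4 (474.6) and Epha5 (432) and the highest of Epha8 (144) and Ntng2 (116.5). Ephb3, which acts in commissural axons, was the steadiest at 0.050, with 48.0 to 53.5 CPM over the 12 libraries.

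**Figure D5:**
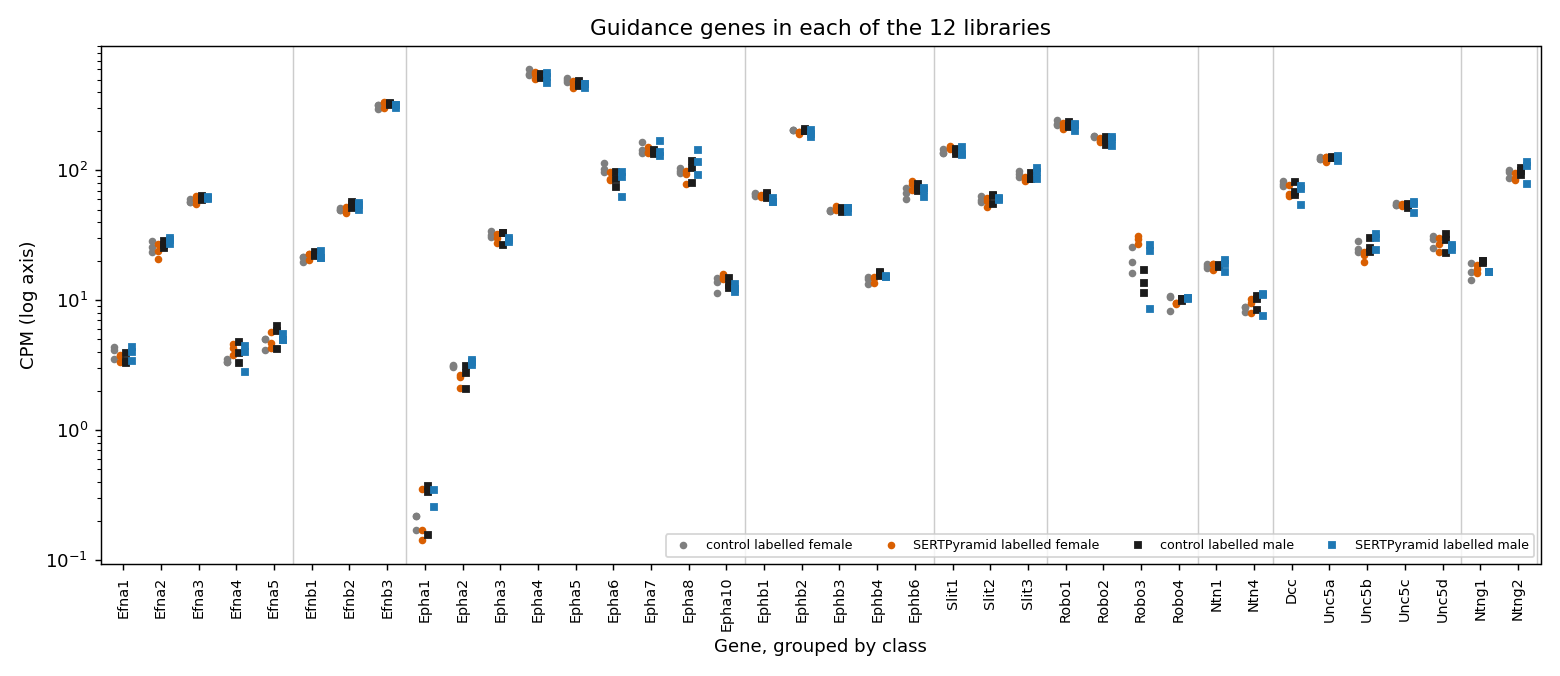
CPM of the 38 guidance genes in each library, on a log axis, with 1 column of points per group and classes separated by lines. The single 0 of Epha1 is not drawn. Most genes keep a tight cluster, and Robo3 spreads from 8.51 to 31.3 CPM.

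Other genes of these pathways were read from 3 lists, and 0 of their genes were called in the fit of 12 libraries. The counts at an unadjusted p under 0.05 stand against 8.04% of all genes among labelled females and 3.16% among labelled males. Of 20 other ligands, co-receptors and shedding enzymes, 16 lay below 0 among labelled females (median -0.05) and 13 among labelled males (median -0.03), with 2 and 1 at an unadjusted p under 0.05. Flrt3, a membrane protein that binds Unc5 receptors and Robo1, had -0.26 ± 0.068 on the log2 scale (SE, edgeR adjusted p = 0.530) in libraries labelled female and 0.01 ± 0.068 among labelled males. Rgmb, a ligand of the Dcc relative Neo1, had a difference between labelled sexes of -0.23 ± 0.10 (adjusted p = 0.999). Of 35 signalling partners, 21 lay below 0 among labelled females and 28 among labelled males, with medians of -0.03 and -0.05 and with 4 and 2 at an unadjusted p under 0.05. The GTPase Rac1 had -0.15 ± 0.049 (adjusted p = 0.530 by edgeR) and the actin regulator Enah -0.33 ± 0.12 (adjusted p = 0.568) among labelled females. Of 29 semaphorins, plexins and neuropilins, a separate family of guidance cues and receptors, 15 and 17 lay below 0, with medians of -0.01 and -0.03 and with 6 and 1 at an unadjusted p under 0.05. Sema4g had 0.17 ± 0.051 and Plxna3 0.24 ± 0.074 among labelled females, both with an adjusted p of 0.530 by edgeR. In the fit of labelled-female libraries alone, where 2.43% of all genes were called, 5 genes of these 3 lists passed the threshold, namely Flrt3 (adjusted p = 0.0331 by edgeR), Rac1 (0.0364), Sema4g (0.0306), Sema5a (0.00173) and Plxna3 (0.000935). The same fit called cell type markers as well, 1 dentate granule and 1 endothelial marker lower, and 2 astrocyte and 2 oligodendrocyte precursor markers higher in SERTPyramid.

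Neuronal marker lists were read beside the guidance genes, and 0 of their genes were called in the fit of 12 libraries. Log2 fold changes of pyramidal neuron markers lay below 0 in 9 of 10 cases among labelled females (median -0.03). Among labelled males 7 of 10 lay above 0 (median 0.04). Dentate granule markers lay below 0 in 8 of 8 cases among labelled females (median -0.17) and above 0 in 7 of 8 among labelled males (median 0.10). GABAergic markers went the other way, with 7 of 8 above 0 among labelled females (median 0.05) and 6 of 8 below 0 among labelled males (median -0.06). Of the Cajal-Retzius markers, 4 of 6 lay above 0 in each labelled sex (median 0.05 in both). The thalamic markers, a check for neighbouring tissue in the dissection, had a summed level of 207 to 224 CPM. They ran from the thalamic factor Gbx2 at 0 to 0.221 TPM to Calb2 at 146 to 175 TPM. Between these, Tcf7l2 had 2.06 to 3.24 TPM, Prkcd 36.6 to 44.95 TPM and Slc17a6 48.0 to 60.6 TPM. The part of these marker lists in the guidance gene values was not tested.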

How the data were processed

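Per the labels, Trizol and a cleanup column gave total RNA of dorsal hippocampus, of which 250 ng entered the TruSeq RNA v2 kit, a kit that keeps no strand information. The authors deposited raw read counts by Ensembl gene, on build mm10 per the submitters' processing notes. For aligner, annotation and counting settings, nothing is given in the sources used here. The table had 0 entries that name no gene.

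Symbols were found for 52401 identifiers, and 52487 matched GENCODE M21 (GRCm38), the source of coordinates and exon lengths. CPM used library totals of 18747249 to 25522347 counts. Genes kept by filterByExpr, 17631 of them, were scaled by TMM and tested with edgeR 4.0.16 (R 4.3.3) by its quasi-likelihood F test, robust option on, in 12 libraries of 4 groups of 3. Adjusted p is by Benjamini-Hochberg over all genes tested, with a threshold of 0.05. SE was taken as |log2 fold change| divided by the root of F. The members and lists were chosen with earlier results of these data known. Members shown in full are those with an unadjusted p under 0.05 in a genotype comparison within labelled sex or in their difference, 8 in all. From each pathway list the 2 genes with the smallest p were named. Dcc and Robo3 in full, Leng8, and the pathway genes called in the labelled-female fit were chosen after their values were seen.

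Alternatives were DESeq2 1.42.0, limma voom (limma 3.58.1), a replicate block, RLE scaling, a filter of 1 CPM in 6 libraries, no filter at all, the compared groups alone, a Y-linked covariate, an adjusted p of 0.1 and leaving out libraries. The fit was tested on simulated counts, for the comparison among labelled females. Of 50 genes changed at each size, it recovered 18% at 1.2-fold, 64% at 1.5-fold, 80% at 2-fold and 98% at 4-fold. It made 11 false calls there, and 1 when no gene was changed. Differences of 1.2-fold were thus mostly missed. All sizes were changed in the same simulated counts, in genes drawn from all those tested, and calls of larger changes ease the Benjamini-Hochberg threshold for smaller ones. In the real counts 0 genes were called in that comparison, so these shares do not give the recovery of a single changed member. Libraries of a group compared in pairs differed by a chi-square of 2.52 to 13.8 per degree of freedom, so none agreed within sampling noise.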

Additional observations from a re-analysis of the deposited data

How the results depend on the processing

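Of 496 recomputed log2 fold changes of the 8 members shown in full, 491 kept their direction and side of the threshold. Of the rest, 5 changed direction and 0 passed the threshold. These cover the genotype comparison in each labelled sex and its difference between them, not the averaged genotype or the labelled sex. Epha5 among labelled males was 0.00374 without SERTPyramid labelled male replicate 3, in a range of -0.06811 to 0.00374 when single libraries were left out. Ntng1 among labelled females was -0.0003156 with the Y-linked covariate, -0.06056 without replicate 1 of both control groups, -0.06053 without control labelled female replicate 1 and -0.01892 without SERTPyramid labelled female replicate 3, in a range of -0.06053 to 0.1551 when single libraries were left out.

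Genes called, 0 in each comparison by edgeR with 12 libraries, became 103 (labelled females), 5 (labelled males), 14 (difference), 66 (averaged genotype) and 194 (labelled sex) with no filter on low counts. In that fit 1 of 38 members was called, Unc5b for labelled sex (log2 -0.22, adjusted p = 0.00878 by edgeR), against 194 of 34328 genes in that comparison. Its log2 difference was the same with the filter, and its SE was 0.053 without the filter and 0.083 with it. DESeq2 called 1 gene among labelled females, 1 for the difference and 17 for labelled sex. The labelled-female groups alone gave 415. For labelled sex, an adjusted p of 0.1 gave 1 and leaving out replicate 1 of both control groups gave 13. Leaving out 1 library at a time gave 0 to 2 genes among labelled females, 0 to 144 for the averaged genotype, with 144 without SERTPyramid labelled male replicate 2, and 0 to 73 for labelled sex, with 73 without SERTPyramid labelled male replicate 1. It gave 0 members in every comparison. The causes were not tested.

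Same-numbered libraries of different groups had correlations of deviations of -0.225 to 0.234 over 18 pairs, with 2 over 0.1. Differently numbered ones had -0.254 to 0.194 over 36 pairs, with 6 over 0.1. Such values cannot tell whether same-numbered libraries share more than a number. The fit with the replicate block called 1 gene for labelled sex and 0 in the other comparisons, and 0 members. Counting error limits Epha1 most, with 0 to 9 counts a library, and Epha2 next, at 2.08 to 3.45 CPM.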
